A study of Mus musculus with 16 samples.

Results

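The mouse brain libraries described here are the wild-type controls of a pair of mouse models, set against each other. They were chosen by their labels: 8 of the 16 libraries of the study are wild type, 4 that serve the Prepl knockout (called Prepl wild types below) and 4 that serve the PWS-IC deletion (called PWS-IC wild types). The remaining libraries are 4 Prepl knockouts, which lack prolyl endopeptidase-like, and 4 mice with a deleted imprinting centre of the Prader-Willi region. Libraries labelled wild type carry no stated allele and no stated treatment, and the labels give brain as the tissue. They give no strain, age, sex, dissection, region or date, nor do they state that replicates are separate animals, so a p-value measures the spread between these libraries. In the study each mutant has its own controls. Setting the wild types against each other shows how far these brain RNAs differed where neither group carries a labelled mutation.

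Inbred mouse strains and separately kept colonies can carry different alleles of the same gene, and whole brain RNA also shifts with the blood, membranes and regions taken along with the tissue. Neurons supply most of its messenger RNA, glia and vessels supply less, and the choroid plexus, meninges and red cells have marker genes of their own. The libraries were made by capture of poly(A) tails (Lexogen QuantSeq), so a transcript gives reads near its 3′ end whatever its length, and RNAs without a long tail are read poorly.

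A set of small noncoding RNAs was among the genes furthest apart between the wild-type groups, and the sequences of 3 of them are shown because none ends in a poly(A) tract in the annotation. Rny1 and Rny3 encode Y RNAs, which bind the Ro60 protein, and are made by RNA polymerase III. The capitals mark the run of T at which that enzyme stops. Snora30 encodes a small nucleolar RNA of the box H/ACA class, which guides pseudouridylation, and the capitals mark its ACA box, 3 bases from the end. The sequences are GENCODE M21 transcripts on GRCm38 (mm10). Rny1 lies at chr6:47788069-47788180 on the minus strand, Rny3 at chr6:47781624-47781725 on the plus strand, and Snora30 at chr7:127527874-127528003 on the plus strand, inside the gene Srcap.
Rny1: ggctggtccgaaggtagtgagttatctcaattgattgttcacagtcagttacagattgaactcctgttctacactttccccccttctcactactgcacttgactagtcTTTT
Rny3: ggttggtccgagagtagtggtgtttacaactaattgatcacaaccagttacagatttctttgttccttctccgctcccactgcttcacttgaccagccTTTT
Snora30: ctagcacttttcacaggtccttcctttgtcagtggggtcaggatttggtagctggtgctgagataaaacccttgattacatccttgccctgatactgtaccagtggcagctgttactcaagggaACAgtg

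Reads in genes numbered 4524883 to 5852716 in the 8 wild-type libraries, and levels are given as counts per 1000000 reads in genes (CPM). Of 8 library measures, the share of tabled reads that aligned outside genes and the share that did not align uniquely had no overlap between the groups. Outside genes lay 17.0% ± 1.76 (SD, n = 4) of the reads of the Prepl wild types and 12.3% ± 1.03 (SD, n = 4) of those of the PWS-IC wild types (exact two-sided permutation test, p = 0.0286, the smallest that 4 against 4 can give, and 0.114 after Benjamini-Hochberg adjustment over the 8 measures). In the mutants these shares overlapped, at 16.1% to 19.2% in the Prepl knockouts and 17.7% to 20.1% in the PWS-IC deleted libraries. Replicate 1 of the Prepl wild types stood apart at 19.6%. The shares that did not align uniquely were 27.2% ± 1.37 and 30.5% ± 0.325 (SD, n = 4 each), with the same permutation p.

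**Figure D1:**
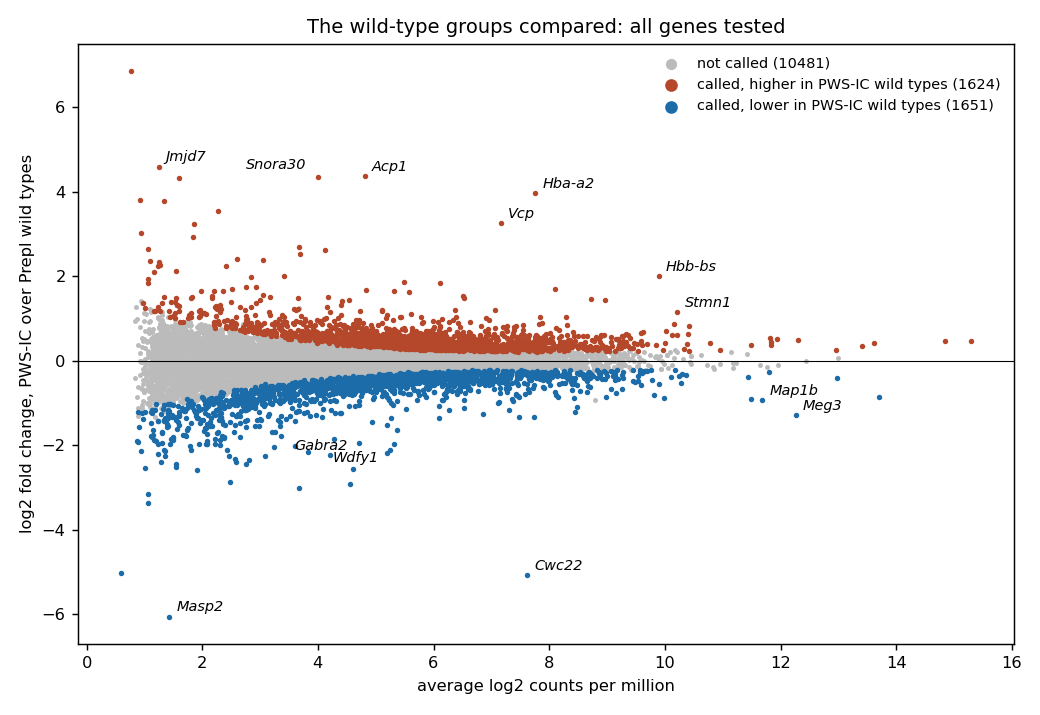
Log2 fold change of PWS-IC over Prepl wild types (y axis) against average log2 CPM (x axis) for each of 13756 genes tested, with called genes coloured. Cwc22 and Masp2 lie far below the other genes at their levels, and Vcp, Acp1, Snora30 and Hba-a2 far above. Masp2 passed the filter through the Prepl libraries alone.

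The wild-type groups differed at 3275 of 13756 genes tested (23.8%), which edgeR's quasi-likelihood test called at a Benjamini-Hochberg adjusted p under 0.05 (called, below). The calls were nearly balanced: 1624 genes (11.8%) were higher in the PWS-IC wild types and 1651 (12%) were lower. These shares are the background beside which the counts of list members below are to be read. Scaling by library size alone moved the balance, with 38.8% of the calls on the higher side against 49.6% with TMM scaling. Most differences were small. The median absolute log2 fold change of the called genes was 0.497, and 411 of them differed by more than 1 on the log2 scale, 135 higher and 276 lower. The 4 values of one group all lay outside those of the other at 3392 genes (24.7%), 9.76% of all genes on the higher and 14.9% on the lower side. Sex differed between the groups as well: by Xist and Y-linked genes, 3 of the Prepl wild types were female and 1 was male, against 2 and 2 of the PWS-IC wild types. With sex as a term 2974 genes were called, and between the female libraries alone 2462. When the outside-genes share entered the fit as a covariate, 221 genes were called, 196 of them also among the 3275 and in the same direction. That share separates the groups with no overlap, so share and group cannot be told apart over these 8 libraries.

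Some of the largest differences with the least spread were at single genes. Vcp encodes valosin-containing protein, the ATPase that extracts ubiquitinated proteins from membranes and complexes. It stood at 24.1, 27.4, 29.1 and 28.2 CPM in the Prepl wild types and at 263, 255, 239 and 256 CPM in the PWS-IC wild types. Every PWS-IC library was several-fold above every Prepl library, with little spread inside either group (log2 fold change 3.26, SE 0.0917, adjusted p = 3.64e-17). Acp1, a low molecular weight tyrosine phosphatase, was at 1.77, 1.03, 3.79 and 3.62 CPM against 53.1, 48.3, 53.2 and 52.9 CPM. Again the groups were far from overlapping (log2 fold change 4.37, SE 0.207, adjusted p = 1.15e-12).

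Cwc22, a spliceosome factor that brings the exon junction complex to RNA, went the other way. Its levels were 468, 354, 305 and 414 CPM in the Prepl wild types and 8.54, 13.4, 9.46 and 13.1 CPM in the PWS-IC wild types. It was thus among the better expressed genes in one set of controls and a low one in the other (log2 fold change -5.07, SE 0.152, adjusted p = 7.41e-17). Masp2, a protease of the lectin pathway of complement, had 99 reads summed over the Prepl wild types and 1 read over the PWS-IC wild types. The ratio of reads scaled to depth was 101 (95% Clopper-Pearson interval 17.8 to 4040, counting error only). Masp2 overlaps Tardbp on the opposite strand, and the strand setting of the counting is not given in the sources used here. Jmjd7, a lysyl hydroxylase gene, had 3 reads against 83, a ratio of 27.0 (95% interval 8.93 to 134) in favour of the PWS-IC wild types. It overlaps Gm28042 on the same strand. No PWS-IC wild type reached the minimum count of 10 for Masp2 (at most 1 read). No Prepl wild type reached it for Jmjd7 (at most 2 reads). The direction of both was therefore fixed by the filter.

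Among the other genes with the smallest p, Atp5h, a subunit of the ATP synthase stalk, had a log2 fold change of 1.83 (SE 0.0927). Aurkaip1, a protein of the mitochondrial ribosome, had 1.86 (SE 0.122), and Scoc, a coiled-coil protein of the Golgi, had 1.48 (SE 0.0906). On the lower side were Dbpht2 at -2.10 (SE 0.133) and Lrrc4c, a synaptic adhesion protein that binds netrin-G1, at -1.26 (SE 0.0874). All 5 were called with no overlap between the groups, at adjusted p-values of 1.01e-09 or less. With the outside-genes share as a covariate Vcp, Acp1 and Cwc22 were called again, with log2 fold changes of 3.14, 4.18 and -4.72.

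Genes known to vary between laboratory mouse strains were listed separately, since the labels name no strain. Of 11 tested, 3 were higher and 4 lower, against 11.8% and 12% of all genes, and the median log2 fold change was -0.05 against -0.00 over all genes. Wdfy1, an endosomal protein of Toll-like receptor signalling, was at 65.9, 67.4, 60.5 and 59.6 CPM in the Prepl wild types and at 14.5, 15.9, 17.7 and 14.7 CPM in the PWS-IC wild types (log2 fold change -1.96, SE 0.114, adjusted p = 3.89e-11). Gabra2, the alpha-2 subunit of the GABA-A receptor, was at 47.3, 47.7, 39.1 and 32.4 CPM against 10.1, 13.3, 9.10 and 9.71 CPM (log2 fold change -1.93, SE 0.160, adjusted p = 1.74e-08). Both genes separated the groups with no overlap. So did Alad, a haem synthesis enzyme (log2 fold change -1.35, SE 0.123), and Nnt, the mitochondrial transhydrogenase (-0.71, SE 0.161). Ide (-0.09), Cyfip2 (-0.05) and Glo1 (0.32) were not called. The adult beta globins Hbb-bs and Hbb-bt and the peptide-amidating enzyme Pam (0.35, SE 0.102) were the 3 called higher.

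**Figure D2:**
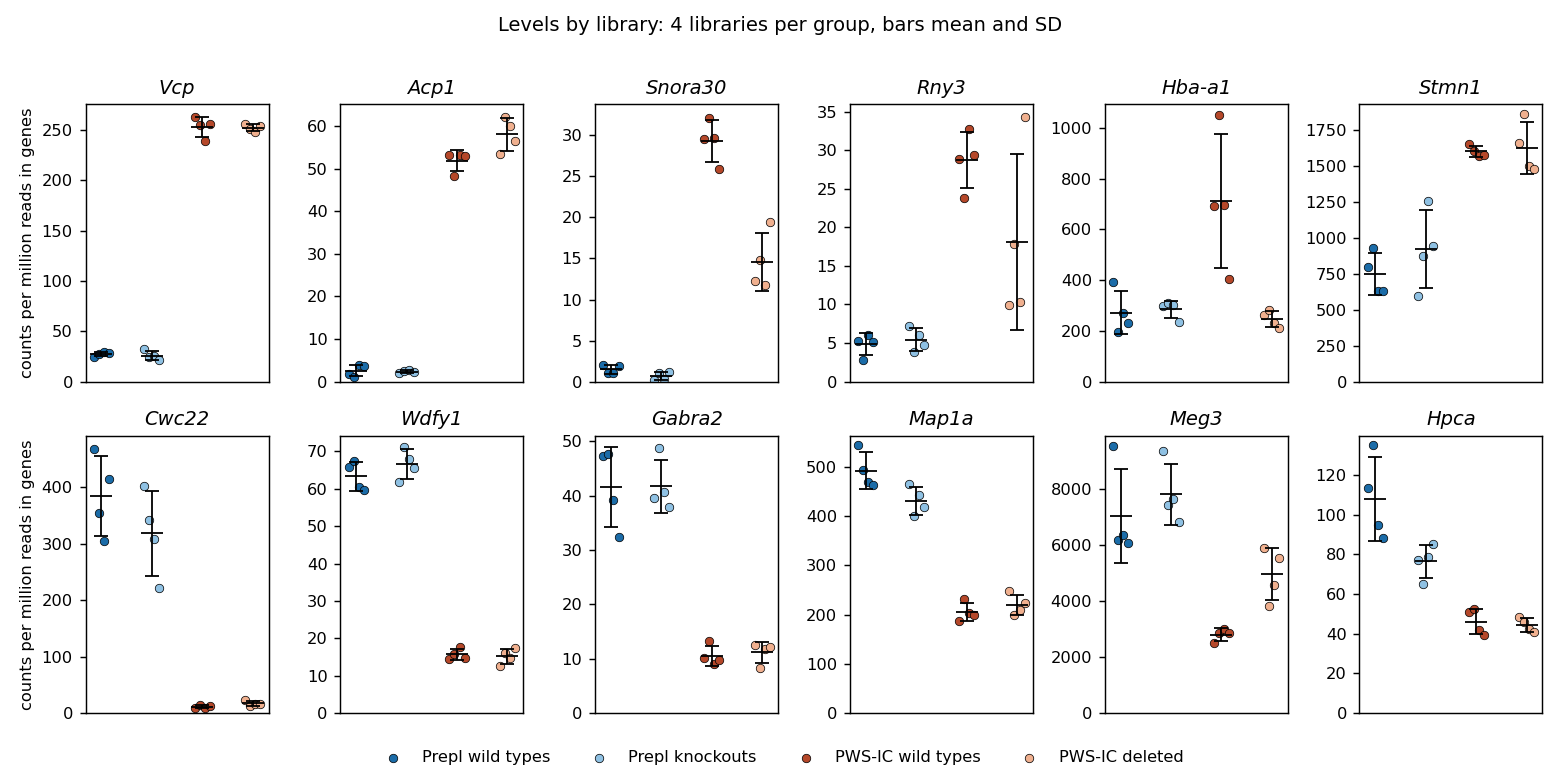
Level of 12 genes in each library (y axis, CPM from 0), by group, with the mean and SD of 4 libraries. For Vcp, Acp1, Cwc22, Wdfy1 and Gabra2 the mutant libraries sit with the wild types of their own model, while Hba-a1 is highest in the PWS-IC wild types.

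Of 31 small structured RNA genes tested, 20 were called higher in the PWS-IC wild types and 1 lower (67.7% called), with a median log2 fold change of 1.08. For 9 of the 31 no Prepl library reached the minimum count, so these entered the test through the PWS-IC libraries and had to be higher. For 1 it was the reverse. Snora30 was at 1.99, 1.03, 1.04 and 1.91 CPM in the Prepl wild types and at 29.6, 32.2, 29.7 and 25.9 CPM in the PWS-IC wild types (log2 fold change 4.36, SE 0.222, adjusted p = 3.11e-12). Rny1 was at 2.21, 4.31, 3.10 and 3.62 CPM against 15.6, 23.9, 23.1 and 21.9 CPM (log2 fold change 2.69, SE 0.216). Rny3 was at 5.30, 2.76, 6.04 and 5.14 CPM against 28.9, 23.9, 32.8 and 29.3 CPM (log2 fold change 2.63, SE 0.194). For all 3 the lowest PWS-IC library was above the highest Prepl library.

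The other 3 transcripts of RNA polymerase III that passed the filter did so through the PWS-IC libraries alone, so their direction was fixed by the filter. Rn7sk, the scaffold that holds the elongation factor P-TEFb inactive, averaged 0.659 CPM against 5.80. Rmrp, the RNA of RNase MRP, averaged 0.263 CPM against 3.97, and Rpph1, the RNA of RNase P, 0.237 CPM against 4.98. Over the Prepl wild types these values rest on 13, 6 and 5 reads. With Rny1 and Rny3, 5 of 5 were called higher, which the filter fixed for these 3. The list was drawn up after the values were seen, and Rpph1 lies inside Ccnb1ip1 on the same strand.

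Of 12 long noncoding RNAs of the nucleus tested, 6 were called lower and 2 higher, with a median log2 fold change of -0.49. With the outside-genes share as a covariate edgeR called 0 of them (3 at an unadjusted p under 0.05), and the median was -0.23. Meg3, the maternally expressed RNA of the Dlk1-Dio3 region, was at 9548, 6176, 6373 and 6092 CPM in the Prepl wild types and at 2486, 2872, 2991 and 2874 CPM in the PWS-IC wild types (log2 fold change -1.28, SE 0.111, adjusted p = 3.31e-08). Malat1, an abundant RNA of nuclear speckles, averaged 3822 CPM against 1967 (-0.91, SE 0.101), and Kcnq1ot1, the antisense RNA of the Kcnq1 imprinted region, 308 CPM against 119 (-1.32, SE 0.135). Replicate 1 of the Prepl wild types, which had the largest share outside genes of the 8 wild types, was the highest of its group for all 3. Without it, 6 members were called lower and 2 higher. The 2 called higher were Gas5, a host of small nucleolar RNAs (0.68, SE 0.123), and Rmst, a neural RNA that binds Sox2 (1.17, SE 0.211).

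Genes that the table names after bacterial artificial chromosome clones also went one way. Of 226 tested, 110 (48.7%) were called lower in the PWS-IC wild types and 0 higher (median log2 fold change -0.83). For 27 of the 226 no PWS-IC library reached the minimum count, so their direction was fixed by the filter. They took 0.167% to 0.224% of the reads in genes of the Prepl wild types and 0.0999% to 0.108% of those of the PWS-IC wild types. In contrast, the 427 long noncoding genes with an annotation gave 36 higher and 57 lower, and 489 pseudogenes gave 66 and 41.

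Transcript length went along with the direction of the difference. The 12042 protein-coding genes with a length in GENCODE were put in 5 groups of nearly equal size by their longest annotated transcript. In the shortest group (204 to 2106 bases) 19.9% were called higher and 4.94% lower. In the longest group (5548 to 123179 bases) 4.77% were called higher and 23.7% lower. The median log2 fold change went from 0.12 to -0.13, and Spearman's rho across genes was -0.249, a description over genes of the same libraries. A like gradient was present between the mutants (22.4% and 9.51% in the shortest group, 7.86% and 23.4% in the longest). The mutants overlapped in the share of reads outside genes, while the share not aligned uniquely separated them as it did the wild types (26.6% to 28.4% in the knockouts, 28.8% to 30.8% in the deleted libraries). The part of either share in the gradient was not tested.

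**Figure D3:**
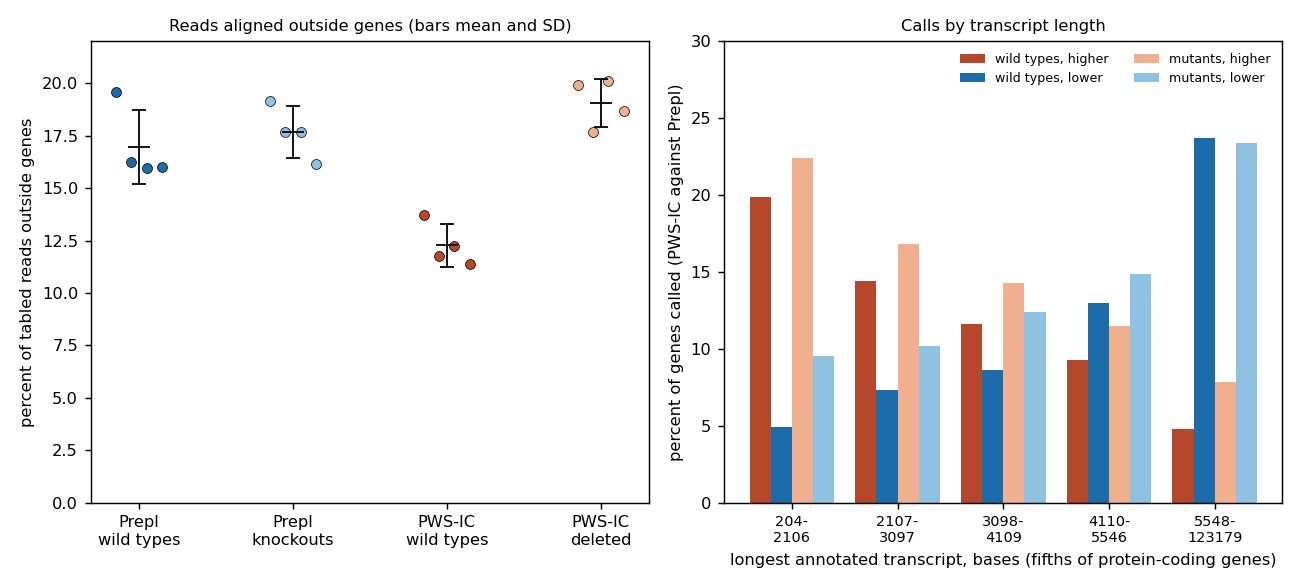
Left, percent of tabled reads outside genes in each library by group, with mean and SD of 4 libraries. Right, percent of protein-coding genes called higher or lower (PWS-IC against Prepl) in each of the 5 length groups, for wild types and mutants. The PWS-IC wild types lie lowest on the left, and calls shift from higher to lower with length in both comparisons.

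Messages of the protein-making and respiratory machinery differed mostly in the higher direction. Of 79 cytosolic ribosomal protein genes tested, 37 were called higher and 2 lower (median log2 fold change 0.25). Without replicate 1 of the Prepl wild types these counts were 33 and 2, and the median was 0.16. With the outside-genes share as a covariate they were 2 and 0, and the median was -0.02. Rps14, a protein of the small subunit, was at 866, 974, 1057 and 1112 CPM against 1803, 1562, 1709 and 1802 CPM (log2 fold change 0.83, SE 0.0828). Rpl7 (0.73, SE 0.0879) and Rpl37 (0.70, SE 0.0859), both of the large subunit, were likewise called. Rps12 (-0.47) and Rps6 (-0.57) were the 2 called lower. Ribosomal protein genes have many processed copies in the genome, so some of their reads may be among those tallied as not aligned uniquely. Their counts can depend on this, which was not tested.

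Of 34 nuclear genes of the respiratory chain and ATP synthase tested, 11 were called higher and 0 lower (median log2 fold change 0.18). Cox7a2, a subunit of cytochrome c oxidase, averaged 368 CPM against 527 (0.57, SE 0.0844), and Atp5k, a subunit of the ATP synthase, 309 CPM against 452 (0.60, SE 0.0907). Ndufb5 and Ndufa4 each had a log2 fold change of 0.47. With the share outside genes as a covariate, edgeR called 0 of the 34 (2 at an unadjusted p under 0.05), and the median was -0.06.

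Long genes of the neuronal cytoskeleton and membrane, a list drawn up after the values were seen, were lower: 15 of 20 tested were called lower and 0 higher (median log2 fold change -0.36). Map1a, a microtubule-associated protein of dendrites, was at 545, 494, 470 and 463 CPM in the Prepl wild types and at 187, 232, 202 and 200 CPM in the PWS-IC wild types (log2 fold change -1.22, SE 0.0877, adjusted p = 1.86e-09). Its relative Map1b, abundant in growing axons, averaged 4378 CPM ± 267 against 2220 ± 84.0 (SD, n = 4 each, log2 fold change -0.93, SE 0.0718). Cacng2, which brings AMPA receptors to the synapse, had a log2 fold change of -1.17 (SE 0.0868), and the anchoring protein Ank2 had -0.67 (SE 0.0975). Map2, another long gene of dendrites, was not called at 0.14 (SE 0.0688).

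The RNAs that mitochondria encode split by gene. Of 13 messenger RNAs tested, 6 were called higher and 4 lower, and their summed share of the reads did not separate the groups (5.99% ± 0.110 against 5.59% ± 0.452, SD, n = 4, exact permutation p = 0.143). Higher were mt-Nd3 (0.60, SE 0.0723), mt-Co3 (0.55, SE 0.0736), mt-Co2 (0.52, SE 0.0749), mt-Atp6, mt-Nd1 and mt-Atp8. Lower were mt-Nd4, at 17800, 18990, 17040 and 15620 CPM against 8247, 10640, 8622 and 9499 CPM (log2 fold change -0.86, SE 0.0809, adjusted p = 1.19e-07), with mt-Nd2, mt-Nd4l and mt-Nd5. The ribosomal RNA mt-Rnr1 was higher by 0.43 and its partner mt-Rnr2 by 0.46. The mitochondrial chromosome had the largest share of called genes, 70.4% of 27, while the autosomes ranged from 19% to 27.6%. The longest runs of neighbouring genes called in one direction held 5 genes.

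Red cell genes had the highest median of the cell-type lists. Of 8 red cell genes tested, 5 were called higher in the PWS-IC wild types and 0 lower (median log2 fold change 1.46). Hbb-bs was at 515, 305, 346 and 373 CPM in the Prepl wild types and at 1784, 1863, 1401 and 898 CPM in the PWS-IC wild types (log2 fold change 2.00, SE 0.174, adjusted p = 3.45e-08). Hba-a1 was at 392, 196, 269 and 232 CPM against 693, 1050, 698 and 405 CPM (1.44, SE 0.204). The near-identical Hba-a2 was at 2.43, 48.7, 1.38 and 50.9 CPM against 408, 578, 384 and 216 CPM (3.97, SE 0.489). Replicates 1 and 3 of the Prepl wild types thus had almost none of it while their Hba-a1 was no lower than that of the others. Reads that match Hba-a1 and Hba-a2 alike may be among those tallied as not aligned uniquely, so single values of either gene are uncertain. Alas2, the haem synthesis enzyme of red cells, was called too (1.49, SE 0.304). Summed over the list, the levels ran from 853 to 1364 CPM in the Prepl wild types and from 2023 to 4225 CPM in the PWS-IC wild types. In bulk tissue, fewer cells of a type and less RNA per cell cannot be told apart.

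Of 14 genes of the choroid plexus, which secretes cerebrospinal fluid, 5 were called higher and 0 lower (median log2 fold change 0.26). Over all genes 11.8% were called higher and 12% lower. The 16 listed genes, tested or not, summed to 1056 to 1604 CPM in one group and 1605 to 2366 CPM in the other. Ttr, the thyroid hormone carrier made there, was at 1345, 1200, 828 and 926 CPM against 1681, 2055, 1297 and 1404 CPM, so that PWS-IC replicate 3 lay below Prepl replicate 1 (0.64, SE 0.137, adjusted p = 0.00176). Clic6 (1.23, SE 0.243), Folr1 (1.39, SE 0.299), Aqp1 (0.92, SE 0.206) and Igfbp2 (0.55, SE 0.0947) were the other 4. Between the female libraries alone, 2 members were called, and Ttr, Clic6 and Folr1 were not among them.

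Of 16 meningeal fibroblast genes, 5 were called lower and 1 higher (median log2 fold change -0.15), against 12% and 11.8% of all genes. Summed, the 16 stood at 1291 to 1461 CPM against 784 to 1519 CPM. The collagens Col1a1, Col1a2 and Col3a1 were not called. Those called lower were Slc22a6 (-1.04), Islr (-0.93), Ogn (-0.85), Pcolce (-0.69) and Ptgds (-0.67), and the 1 called higher was Igfbp2, which the choroid plexus list also holds. Of 15 endothelial genes, 2 were called lower and 0 higher (median -0.06), the lower count near the share over all genes (12%). They were Flt1, a VEGF receptor (-0.75, SE 0.153), and Kdr (-0.34, SE 0.104). Of 8 ependymal genes, Foxj1, the regulator of motile cilia, was the 1 called (0.85, SE 0.155), near the 11.8% called higher over all genes. Among microglial genes 1 of 14 was called (Tmem119, -1.03, SE 0.374, at 3.15 CPM against 1.46), against 12% called lower over all genes. The call of Tmem119 was lost on leaving out any of 6 of the 8 libraries.

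The 17 listed genes of oligodendrocytes and myelin, tested or not, summed to 223 to 313 CPM in the Prepl and 176 to 218 CPM in the PWS-IC wild types. Of 10 genes of oligodendrocytes and myelin tested, 3 were called lower and 0 higher (median -0.22), against 12% and 11.8% of all genes. Mbp, a main protein of central myelin, averaged 58.4 CPM against 44.1 and was not called (-0.35, SE 0.142). Mag (-0.70) and Cldn11 (-0.74) were among those called, and of these Mag lost its call on leaving out any of 7 of the 8 libraries and Cldn11 on leaving out PWS-IC replicate 1 or 4. Astrocyte genes gave 1 higher (Aldoc, 0.36) and 2 lower (Gja1, -0.46, and Gfap, -0.70) of 15, near the shares over all genes (11.8% higher, 12% lower). Gfap averaged 12 CPM against 7.08, and its call was lost on leaving out any of 5 of the 8 libraries.

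Of 14 general neuronal genes, 5 were called lower and 1 higher, against 12% and 11.8% of all genes. The vesicle calcium sensor Syt1 had a log2 fold change of -0.43 (SE 0.0918), Thy1 -0.65 (SE 0.125), Elavl3 -0.39 (SE 0.0738), Nefm -0.38 (SE 0.0962) and Eno2 -0.31. Uchl1 was the 1 higher at 0.25. Rbfox3 (0.02) and Snap25 (-0.15, SE 0.0806) were not called.

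In the region lists 0 to 3 members were called in either direction, most of them lower, against 11.8% higher and 12% lower over all genes. With few members per list, the counts are not read as regional differences. Summed levels of the striatal list did not overlap (866 to 886 CPM in the Prepl and 576 to 706 CPM in the PWS-IC wild types). Nor did those of the excitatory (2544 to 2927 against 1980 to 2404.5 CPM) and inhibitory lists (1046 to 1093 against 885 to 1019.5 CPM). In the other region lists the sums overlapped. Foxp1 averaged 584 CPM against 418 and Nrgn 661 against 353, so 1 gene each carried much of the striatal and excitatory differences. Among single genes 24.7% of those tested had no overlap, and the sums are not read as regional differences either. In the striatal list 3 of 12 were lower (Pde10a, -0.77, Foxp1, -0.44, and Adcy5, -0.41) and 1 higher (Tac1, 0.49), while the dopamine receptor Drd2, a defining marker, had reads in 1 of the 8 libraries only, at 0.345 CPM. Excitatory cortical and hippocampal genes gave 0 higher and 3 lower of 16, inhibitory neurons 0 and 3 of 14, the thalamus 0 and 3 of 14, the olfactory bulb 0 and 2 of 12, granule cells of the cerebellum 1 and 2 of 11, Purkinje cells 0 and 1 of 11, the hippocampal fields 0 and 1 of 8, and brainstem and monoamine neurons 2 and 1 of 13. Of 11 hypothalamic neuropeptide genes, edgeR's quasi-likelihood test called 0, with 2 at an unadjusted p under 0.05, DESeq2 called 0 and limma-voom 1. Hoxa5, which is expressed in the hindbrain and spinal cord, was at 29.8, 41.7, 23.8 and 49.1 CPM against 96.5, 93.0, 29.1 and 68.9 CPM, so the groups overlapped at PWS-IC replicate 3 (1.05, SE 0.249, adjusted p = 0.00374). The pituitary hormones Gh and Prl had 0 reads in all 8 libraries.

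**Figure D4:**
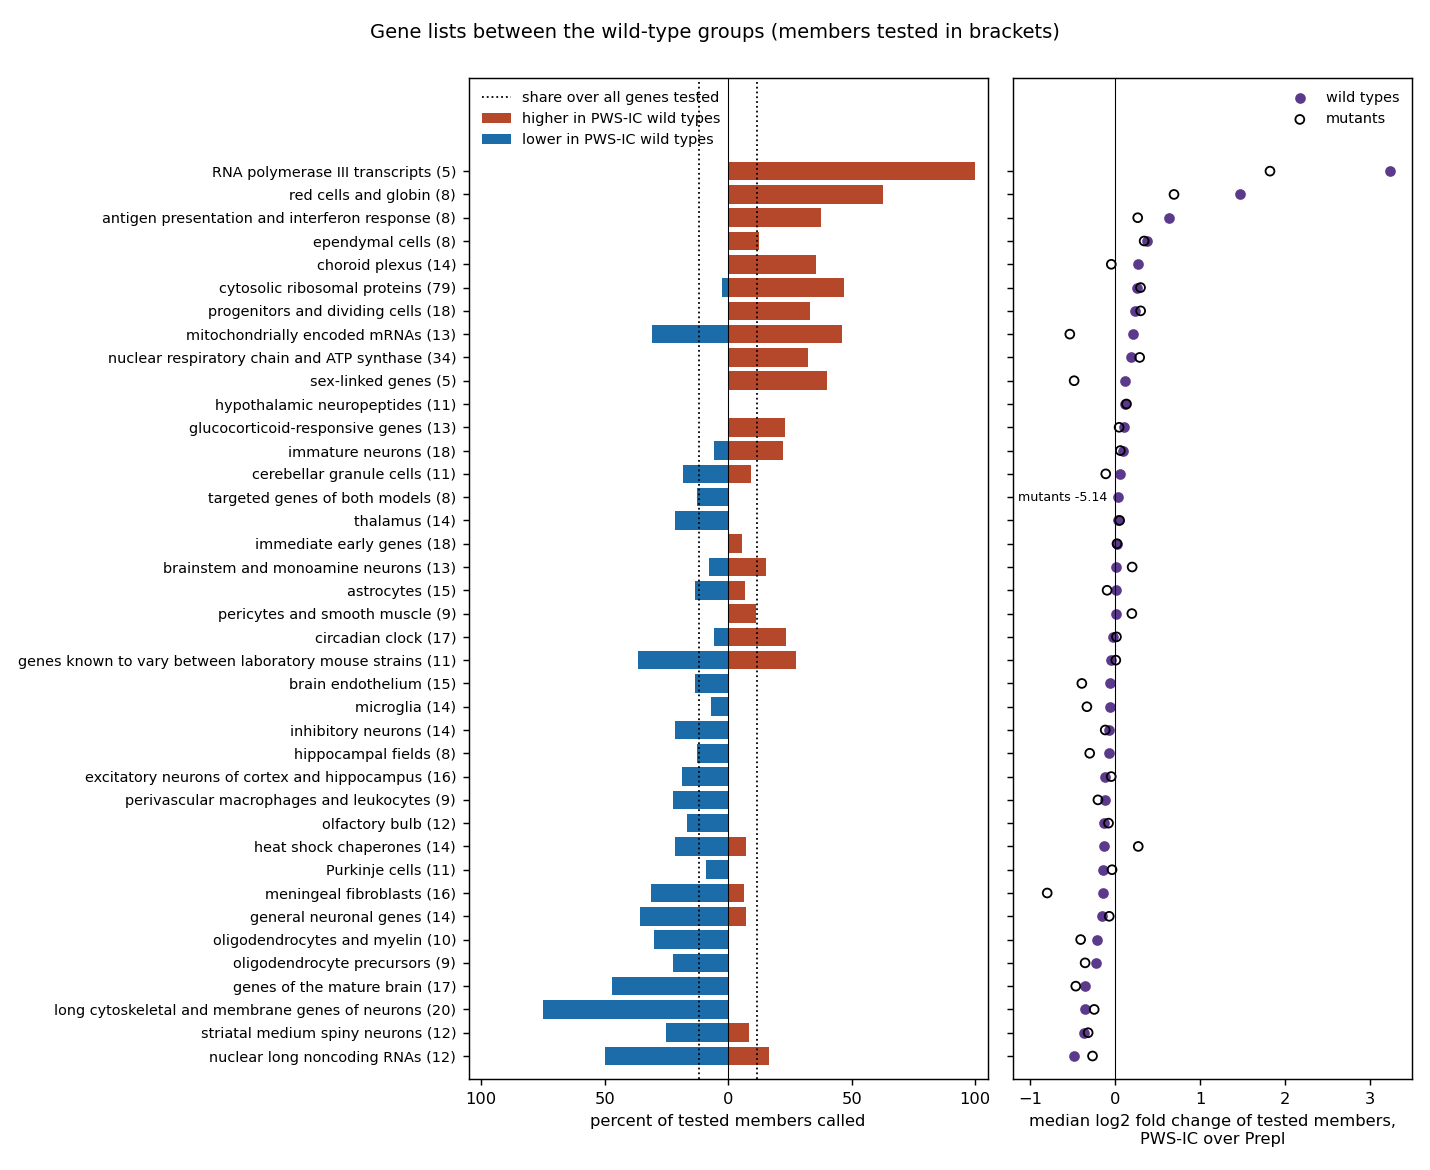
Left, percent of the tested members of each of 39 gene lists (those with at least 5 tested) called higher or lower in the PWS-IC wild types, with the shares over all genes dotted. Right, median log2 fold change of the members between the wild types and between the mutants. RNA polymerase III transcripts, 3 of 5 of which passed the filter through the PWS-IC libraries alone, and red cell genes lie furthest to the right, nuclear long noncoding RNAs furthest to the left among the wild types.

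The 18 genes of immature neurons tested summed to 23726 to 25767 CPM over the Prepl wild types, against 22674 to 24229 CPM over the PWS-IC wild types. Dcx, a microtubule protein of migrating neurons, averaged 1129 CPM ± 54.4 against 1151 ± 102 (SD, n = 4 each) and was not called. Stmn1, which destabilises microtubules in growing cells, was at 797, 934, 634 and 629 CPM against 1653, 1609, 1573 and 1582 CPM (log2 fold change 1.15, SE 0.10, adjusted p = 3.76e-08). Igfbpl1, of newborn neurons, averaged 152 CPM against 303 (1.04, SE 0.114). Of the 18, 4 were called higher and 1, Map1b, lower, against 11.8% and 12% of all genes. Of 18 genes of progenitors and dividing cells, 6 were called higher and 0 lower (median 0.23). The mitotic kinase Cdk1 had a log2 fold change of 0.86 (SE 0.156), while the proliferation marker Mki67 had -0.36 (SE 0.143) and was not called.

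Of 17 genes of the mature brain, 0 were called higher and 8 lower (median log2 fold change -0.35). Hpca, a neuronal calcium sensor, was at 114, 135, 94.7 and 88.2 CPM against 50.9, 52.3, 41.9 and 39.6 CPM (-1.17, SE 0.124, adjusted p = 6.34e-07), and Nrgn, a calmodulin-binding protein of dendrites, at 906, 629, 577 and 534 CPM against 323, 325, 349 and 414 CPM (-0.86, SE 0.123). These lists were drawn up after the values were seen. Without replicate 1 of the Prepl wild types, 4 progenitor genes were called higher and 5 mature brain genes lower. With the outside-genes share as a covariate, edgeR called 0 members of either list (2 of each at an unadjusted p under 0.05), and the medians were -0.02 and 0.11.

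Genes that respond to the state of the animal differed at a few members. Among 18 immediate early genes 1 was called higher and 0 lower, against 11.8% and 12% of all genes. Among 13 glucocorticoid-responsive genes 3 were higher, the metallothioneins Mt1 (0.55, SE 0.122) and Mt2 (0.62, SE 0.112) and the clock gene Per1 (0.61, SE 0.214). Among 17 clock genes Cry1 (0.69), Per2 (0.73), Nr1d2 (0.46) and Per1 were higher and Rorb (-0.53) lower. The calls of Per1 and Per2 were lost on leaving out any of 5 and of 4 of the 8 libraries, and none of the 4 higher ones was called between the female libraries alone. Heat shock chaperones gave 1 higher and 3 lower of 14, near the shares over all genes, and 0 and 0 without Prepl replicate 3 (4 at an unadjusted p under 0.05). B2m, the light chain of class I antigen presentation, was at 50.4, 48.4, 43.5 and 48.2 CPM against 76.2, 77.2, 76.6 and 79.0 CPM, with no overlap (0.75, SE 0.0894, adjusted p = 3.57e-06). Of 8 antigen presentation and interferon genes, 3 were called higher and 0 lower (median 0.64), B2m and Ifitm3 (0.58) among them.

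The genes that the models target did not separate their wild types. Prepl averaged 34.8 CPM ± 1.35 and 33.5 ± 4.74 (SD, n = 4 each, log2 fold change -0.01, SE 0.117), against 1.64 CPM in the knockouts. Ndn (0.09), Snrpn (-0.05), Magel2 (0.13), Mkrn3 (-0.02), Peg12 (0.30) and D7Ertd715e (0.07), genes of the Prader-Willi region active on the paternal chromosome, were not called either. The exception was A330076H08Rik, a noncoding gene of that region. It was at 67.9, 41.3, 37.1 and 33.0 CPM in the Prepl wild types and at 16.2, 13.6, 16.4 and 17.3 CPM in the PWS-IC wild types, with no overlap (log2 fold change -1.44, SE 0.180, adjusted p = 6.17e-06). Its call was kept on leaving out any single library (-1.56 to -1.17). With the outside-genes share as a covariate edgeR did not call it (-0.42, adjusted p = 0.502).

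The mutants of the same models offer libraries that share no sample with the wild types. The PWS-IC deleted and Prepl knockout libraries differed at 3952 of 13641 genes (29.0%), 2009 higher (14.7%) and 1943 lower (14.2%) in the deletion, and their values did not overlap at 27.9% of genes. Of 13357 genes tested in both comparisons, 1929 were called in the same direction, 977 higher and 952 lower, and 12 in opposite directions. The 1929 genes are 59.8% of those called between the wild types and 50.3% of those called between the mutants. Over all 13357 genes the mutant comparison called 28.7% and the wild-type comparison 24.1%, counting both directions. Each was split nearly evenly between higher and lower, so a single direction holds a smaller share. Across genes the log2 fold changes had Pearson's r of 0.665 and Spearman's rho of 0.646, a description over genes, which are not independent. The mutant comparison also holds the differences between the genotypes, and all 4 Prepl knockouts were male.

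**Figure D5:**
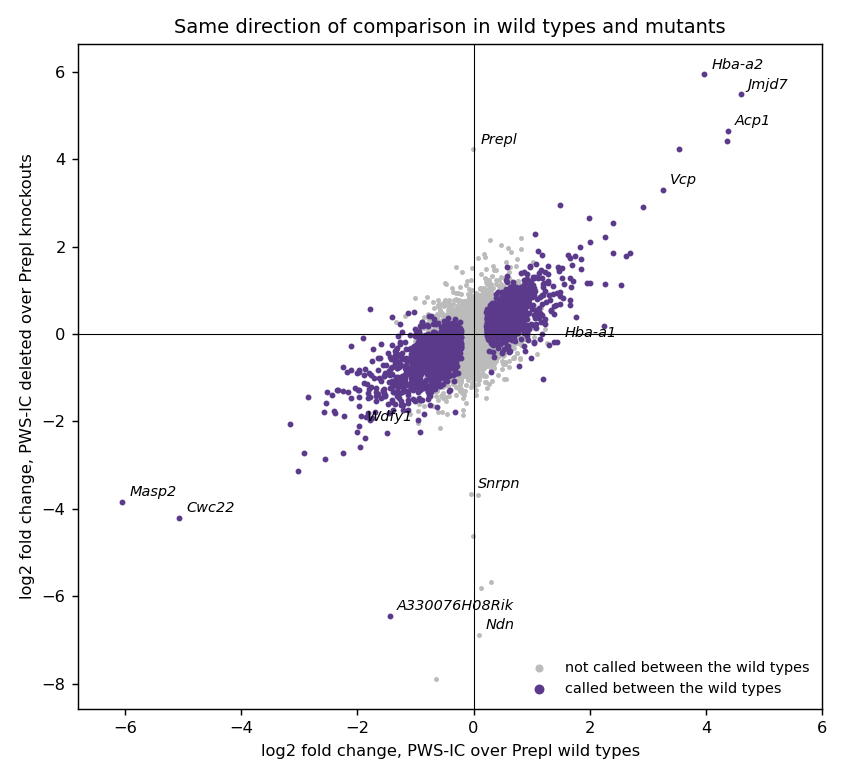
Log2 fold change of PWS-IC deleted over Prepl knockout libraries (y axis) against that of PWS-IC over Prepl wild types (x axis), each dot a gene tested in both. Vcp, Acp1, Hba-a2, Cwc22 and Masp2 lie far out in both comparisons, and the targeted genes Prepl, Snrpn and Ndn lie on the vertical axis.

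Vcp, Acp1, Cwc22 and the strain-list genes Wdfy1, Gabra2 and Alad differed in the same direction between the mutants. Some genes far apart between the wild types, Rpph1, Rmrp and Rn7sk among them, did not pass the filter in the mutants. Vcp averaged 25.9 CPM ± 4.30 in the knockouts and 252 ± 3.56 in the deleted libraries (log2 fold change 3.31, SE 0.0999). Acp1 averaged 2.32 CPM against 58.0, Cwc22 319 against 17.0, Wdfy1 66.7 against 15.1, Gabra2 41.7 against 11.1, and Alad 58.3 against 19.1. In all 6 the mutant means were on the side of their own model's wild types. At 9.04% of the 13756 genes (553 higher and 691 lower) the 8 PWS-IC libraries lay wholly apart from the 8 Prepl libraries. The PWS-IC wild types lay apart from the other 12 libraries at 1.93% of genes and the Prepl wild types at 1.44%.

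A test of the difference between the 2 comparisons over all 16 libraries called 112 of 14392 genes (0.778%). The targeted genes were among them, as was Hba-a1, with a difference of the log2 fold changes of 1.63 (SE 0.266, adjusted p = 0.000731). Hba-a1 differed between the wild types but not by a called amount between the mutants (-0.19, SE 0.0993). The near-identical Hba-a2 was called higher in the deleted than in the knockout libraries (5.95, SE 0.177), and its difference of -1.98 (SE 0.879, adjusted p = 0.364) was not called. Hbb-bs (1.17) and Hbb-bt (1.22) were called between the mutants too. Hba-a1 alone is therefore not read as a red cell difference. In the test of the difference mitochondrial messages were called as well. The message mt-Cytb was level between the wild types (0.07, SE 0.0745) and lower in the deleted than in the knockout libraries (-1.04, SE 0.0791). The message mt-Nd4 was lower in both comparisons (-0.86 and -1.82). For Map1b the difference was larger between the wild types (-0.93 against -0.39, difference -0.54, SE 0.104, adjusted p = 0.00520). The differences of Vcp (-0.04, SE 0.134), Cwc22 (-0.86, SE 0.262, adjusted p = 0.142) and Meg3 (-0.65, SE 0.171, adjusted p = 0.0669) were not called.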

How the data were processed

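Poly(A)-captured 3′ RNA libraries (Lexogen QuantSeq, per the labels' protocols) of 16 mouse brain samples were read from the authors' deposited table of counts per gene symbol (43472 symbols). Reads were aligned with HISAT2 to mm10 and counted with HTSeq, per the submitters' processing notes. Not given in the sources used here: versions, annotation and strand setting. The 5 totals lines stayed out of library sizes and tests and gave the shares outside genes, ambiguous, not aligned and not unique. Groups came from the sample titles. All counts were used as deposited, with 4524883 to 5852716 reads in genes per wild-type library.

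The 8 wild-type libraries were compared with edgeR 4.0.16 in R 4.3.3 (filterByExpr with a minimum count of 10 and a minimum total of 15, TMM scaling, quasi-likelihood F test, Benjamini-Hochberg adjusted p under 0.05). Positive log2 values are higher in the PWS-IC wild types, and SE is the absolute log2 fold change over the square root of F. Mutants were fitted the same way, and the difference of differences over all 16 libraries. On simulated data over 13588 genes, 99% of changes of 1 on the log2 scale and 26% of changes of 0.5 were recovered, with 6 false calls. The simulation changed far fewer genes than were called here and gave all genes the same dispersion, so recovery in these data can differ. The 8 library measures used an exact two-sided permutation test over 70 assignments (scipy 1.17.1, Python 3.11.15). Every pair of wild-type replicates differed by more than sampling noise (chi-square per degree of freedom of at least 2.48). Alternatives with DESeq2 1.42.0, limma 3.58.1 and other settings are given in the closing section.

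Members and the 42 gene lists were chosen with earlier results of these data known, and 5 lists (progenitors, immature neurons, mature brain, RNA polymerase III transcripts, long cytoskeletal genes) were added after the values were seen. Genes were named by a rule: among called genes without overlap whose average log2 CPM was 1 or more, the 12 largest and the 6 of smallest p in each direction, the 4 called members of smallest p in each list, the 10 recurring genes of smallest p, the targeted genes and sex markers. This gave 128 genes, and others named were chosen after their values were seen. Coordinates and lengths are from GENCODE M21 on GRCm38, which matched 94.2% of the 13756 genes tested, and sequences from its transcripts. Figures were drawn with matplotlib 3.10.9. Some items are not reported here.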

Additional observations from a re-analysis of the deposited data

Results flagged for a closer look

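In 28 of 296 groups of 4 wild-type values checked, the highest or lowest library stood apart from the other 3 by Dixon's criterion, which chance meets in about 1 in 20 groups. Replicate 1 of the Prepl wild types stood apart most often. It was high for Hbb-bt (225.0 CPM), Clic6 (11.9 CPM), Gja1 (108.7 CPM), Pde10a (70.7 CPM), Per1 (28.7 CPM), Mt1 (194.0 CPM), Meg3 (9548 CPM) and Malat1 (4699 CPM), and low for Ndn (460.8 CPM), Igfbpl1 (103.2 CPM) and Rpl34 (86.9 CPM). This library also had 19.6% of its reads outside genes. Replicate 2 of that group stood apart for mt-Nd3 (980.7 CPM), replicate 3 for Cbr1 (56.2 CPM) and replicate 4 for 5830415F09Rik (0.381 CPM).

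Among the PWS-IC wild types, replicate 2 stood apart for Acp1 (48.3 CPM), Masp2 (0.189 CPM), Ogn (10.8 CPM), Foxj1 (28.2 CPM), Thy1 (42.0 CPM), Cpne4 (45.4 CPM), Rpl7 (169.0 CPM) and mt-Atp6 (6429 CPM). For Masp2 this is 1 read where the rest of the group had 0, so that read fixed the flag. Replicate 1 stood apart for Kdr (33.2 CPM), Foxp1 (351.8 CPM) and mt-Rnr2 (53160 CPM), and replicate 4 for Rxfp1 (1.71 CPM) and Magel2 (28.6 CPM).

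Named genes whose difference between the wild types was not that between the mutants, by edgeR's test of the difference over 16 libraries, are given as the wild-type minus the mutant log2 fold change. The values were 1.63 for Hba-a1, 0.96 for mt-Nd4, 0.56 for mt-Nd3, 0.62 for mt-Co3, 0.61 for mt-Co2, 1.46 for mt-Nd4l, 1.10 for mt-Cytb, 0.93 for mt-Atp6 and 0.88 for mt-Nd1. For Map1b the value was -0.54, for Cbr1 1.02, for H19 0.89 and for Ap2s1 -0.51. For the targeted genes the values were -4.24 for Prepl, 6.97 for Ndn, 5.95 for Magel2, 4.59 for Mkrn3, 6.0 for Peg12, 3.60 for Snrpn, 3.75 for D7Ertd715e and 5.01 for A330076H08Rik. Xist gave -9.35, where the sexes of the 4 groups are not the same.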

How the results depend on the processing

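Among the counts, 1 setting changed the result most. With the outside-genes share as a covariate, 221 genes were called between the wild types (121 higher, 100 lower) in place of 3275, and 135 were called the same way in both comparisons in place of 1929 (the second added after seeing the data). That share and the group do not overlap, so this fit has little to tell them apart by. Of 133 called genes among the 149 named, 42 kept their call there, 87 lost it with the same sign, and 4 lost it and changed sign: Gfap (0.46), Thy1 (0.072), Adarb1 (0.18) and Dnajb1 (-0.017). Of the 16 named genes that were not called, 11 changed sign and 0 were called. A test against a fold of 1.2 called 1111 genes (521 higher, 590 lower). Scaling by RLE called 3282, by upper quartile 3249 (42.7% higher) and by library size alone 3238 (38.8% higher), DESeq2 3125, limma-voom 3244, all genes unfiltered 3552, and counts thinned to the smallest library 2744.

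Leaving out 1 wild type gave 2441 to 3506 calls, 1219 to 1716 higher and 1222 to 1790 lower, and leaving out 1 mutant gave 3209 to 3905, 1671 to 2045 higher and 1538 to 1860 lower. For the library measures the PWS-IC minus Prepl difference then ranged from -5.16 to -3.80 points outside genes and from 2.66 to 3.65 not unique. With the replicate number as a block 3194 wild-type and 3506 mutant genes were called. The numbers do not pair the libraries: same-numbered wild types had correlations of -0.0787 to -0.0117. In simulation 26% of changes of 0.5 on the log2 scale were recovered. Far fewer genes were changed there than were called here, and all genes had the same dispersion. The 26% is therefore not the recovery in these data. A gene that was not called can still differ.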
